A study of Mus musculus with 16 samples.

Results

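The genes described here are 32 genes of glycolysis and of the transcriptional response to low oxygen, taken from the 22287 genes of a count table of mouse bone marrow derived macrophages (BMDMs) by their symbols. They are 3 transporters (Slc2a1, Slc16a1 and Slc16a3), 16 glycolytic enzymes from Hk1 to Ldha, 3 regulators of flux (Pfkfb3, Pfkfb4 and Pdk1), Hif1a with the prolyl hydroxylases Egln1 and Egln3, and 7 hypoxia response genes (Vegfa, Bnip3, Ankrd37, P4ha1, Adm, Ndrg1 and Ddit4). All 32 passed the filter on low counts that left 12514 genes for testing. The name of the group describes annotated functions, and neither oxygen nor metabolites were measured in these libraries.

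Glycolysis converts glucose to pyruvate in the cytosol, and lactate dehydrogenase with a lactate exporter lets it run without mitochondrial oxidation of pyruvate. HIF-1α, the protein encoded by Hif1a, is hydroxylated by prolyl hydroxylases when oxygen is present and is then degraded. When hydroxylation slows, HIF-1α pairs with ARNT on DNA elements that hold the core ACGTG or GCGTG and turns on glycolytic enzymes, Vegfa, Bnip3 and the prolyl hydroxylase genes Egln1 and Egln3 themselves. In macrophages, bacterial lipopolysaccharide (LPS) is known to raise Hif1a transcription through NF-κB and to increase glycolysis.

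Bone marrow of C57BL/6J mice aged 8 weeks was cultured for 7 days with GM-CSF (GM) or M-CSF (M), 2 growth factors that give macrophages of different character. Dishes were either treated for tissue culture (TC), which makes the plastic hydrophilic and adherent, or left untreated (noTC). Cells were harvested at steady state or after 3 h of LPS, which gave the groups GM-TC, GM-noTC, GM-TC-LPS, GM-noTC-LPS, M-TC, M-noTC, M-TC-LPS and M-noTC-LPS with 2 libraries each. The cells are primary and no gene was altered in any group. The study's methods seeded GM cultures more densely than M cultures and left the medium unchanged for the whole culture, so growth factor and density cannot be told apart.

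Promoters were searched for both HIF cores. Of the 32 genes, 31 matched a RefSeq promoter on GRCm38.p6, and Ndrg1 is named only. In the 250 bases before the transcription start, 20 of the 31 genes held ACGTG on either strand, against 18.5% of all 27025 genes with a promoter and 24.8% of the 9905 tested genes that matched one. GCGTG was found in 21 of the 31, against 30.9% of all genes and 49.4% of the tested ones. A gene with several promoters counted if any of them held the core. By promoter, 23 of the 45 of these genes held ACGTG, against 16.6% of all 32851 promoters. GCGTG was in 25 of the 45, against 28.2%. A part of the ACGTG matches lies within CACGTG, the E-box that other factors bind, which 6 of the 31 held against 6.86% of all genes and 9.83% of the tested ones. The promoters of the 4 genes that were over 2-fold higher on noTC dishes in GM or M cells at steady state are shown because the largest differences between dishes concern them, with both cores in capitals. Of all tested genes, 0.943% were over 2-fold higher on noTC dishes in GM and 2.17% in M cells. The Egln3 promoter is at chr12:54203875-54204124 on the minus strand, that of Ankrd37 at chr8:45999851-46000100 on the minus strand, that of Bnip3 at chr7:138909507-138909756 on the minus strand and that of Slc16a3 at chr11:120948817-120949066 on the plus strand. Each runs 5′ to 3′ along the gene.
Egln3: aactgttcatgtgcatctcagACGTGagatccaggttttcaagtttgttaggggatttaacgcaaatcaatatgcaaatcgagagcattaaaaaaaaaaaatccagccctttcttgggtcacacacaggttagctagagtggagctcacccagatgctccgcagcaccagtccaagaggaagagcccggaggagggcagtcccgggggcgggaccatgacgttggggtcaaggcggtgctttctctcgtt
Ankrd37: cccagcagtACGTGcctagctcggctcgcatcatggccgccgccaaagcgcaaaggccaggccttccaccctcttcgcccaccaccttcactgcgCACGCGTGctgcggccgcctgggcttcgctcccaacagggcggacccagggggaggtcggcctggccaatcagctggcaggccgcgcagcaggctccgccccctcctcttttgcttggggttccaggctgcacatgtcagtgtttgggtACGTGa
Bnip3: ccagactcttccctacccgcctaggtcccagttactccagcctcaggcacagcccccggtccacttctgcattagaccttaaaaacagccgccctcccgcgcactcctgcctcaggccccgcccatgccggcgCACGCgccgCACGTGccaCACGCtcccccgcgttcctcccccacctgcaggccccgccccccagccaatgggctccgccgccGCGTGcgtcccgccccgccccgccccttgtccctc
Slc16a3: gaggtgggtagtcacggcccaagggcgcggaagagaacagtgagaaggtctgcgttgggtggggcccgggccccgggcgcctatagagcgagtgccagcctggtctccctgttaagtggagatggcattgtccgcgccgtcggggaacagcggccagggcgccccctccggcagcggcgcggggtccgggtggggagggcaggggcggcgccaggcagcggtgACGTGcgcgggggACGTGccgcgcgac
Egln3 held 1 ACGTG and no GCGTG, Ankrd37 held 2 of each, Bnip3 held 2 and 3, and Slc16a3 held 2 ACGTG. A palindromic CACGTG counts on both strands, as in Bnip3. A match is a run of letters and does not show binding.

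Total counts lay between 17527802 and 31458363 per library, and a gene with 3 counts has a level of 0.0954 to 0.171 CPM, the count scaled to a common library total, a limit of counting error alone. CPM given for single genes are scaled by edgeR's TMM factors, which were 1.11 to 1.39 at steady state and 0.778 to 0.842 after LPS. Markers of macrophages summed to 19276 CPM or more in every library. Markers of striated muscle (11 genes) summed to between 26.6 and 90.7 CPM in the 4 steady-state TC libraries, with all 11 detected there, and to 0.514 to 1.44 CPM in the other 12. Markers of neutrophils (8 genes) summed to 14.4 to 35.5 CPM in GM and 0.452 to 1.73 CPM in M libraries, and those of dendritic cells (5 genes) to 784 to 1086 and 17.6 to 65.9 CPM. Genes at 1 CPM or less in the TC steady-state libraries and 100 CPM or more elsewhere (15 in GM and 19 in M) were present in the noTC steady-state libraries at an estimated 0.675% of their mean in 10 other libraries for GM cells and 0.600% for M cells. Whether these are reads carried over from other libraries or low expression on noTC dishes was not tested. The replicates of GM-TC differed most, with a chi-square per degree of freedom of 12.2 against 1.90 to 4.87 in the other groups. In bulk RNA, fewer cells of a type and less RNA per cell cannot be told apart.

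The dish was compared first, to see whether the plastic alone changed these genes. In GM cells at steady state, 19 of the 32 genes were higher on noTC dishes and 0 were lower, by edgeR's quasi-likelihood test at a Benjamini-Hochberg adjusted p under 0.05. Over all tested genes the shares were 4.69% higher and 2.85% lower. In M cells, 18 were higher on noTC dishes and 0 lower, against 16.1% and 11.1% of all genes. At an unadjusted p under 0.05, and with DESeq2, 0 were lower in either cell type. The median log2 fold change of the 32 genes was 0.27 in GM and 0.32 in M, and that of all tested genes was 0 in GM and 0.011 in M. There were 12 genes, Ankrd37, Eno1, Gapdh, Gpi1, Ldha, Pdk1, Pfkl, Pgk1, Pkm, Slc16a3, Slc2a1 and Tpi1, that rose in both cell types, which 2.41% of all genes did. The M call of Pfkl was lost with DESeq2 (adjusted p = 0.079) and without M-TC replicate 2 (0.31), M-noTC replicate 1 (0.051) or M-noTC replicate 2 (0.29). With 1 library left out in turn, the number called was 15 to 21 in GM and 16 to 18 in M. A fit to the 4 GM libraries alone called 11.

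**Figure D1:**
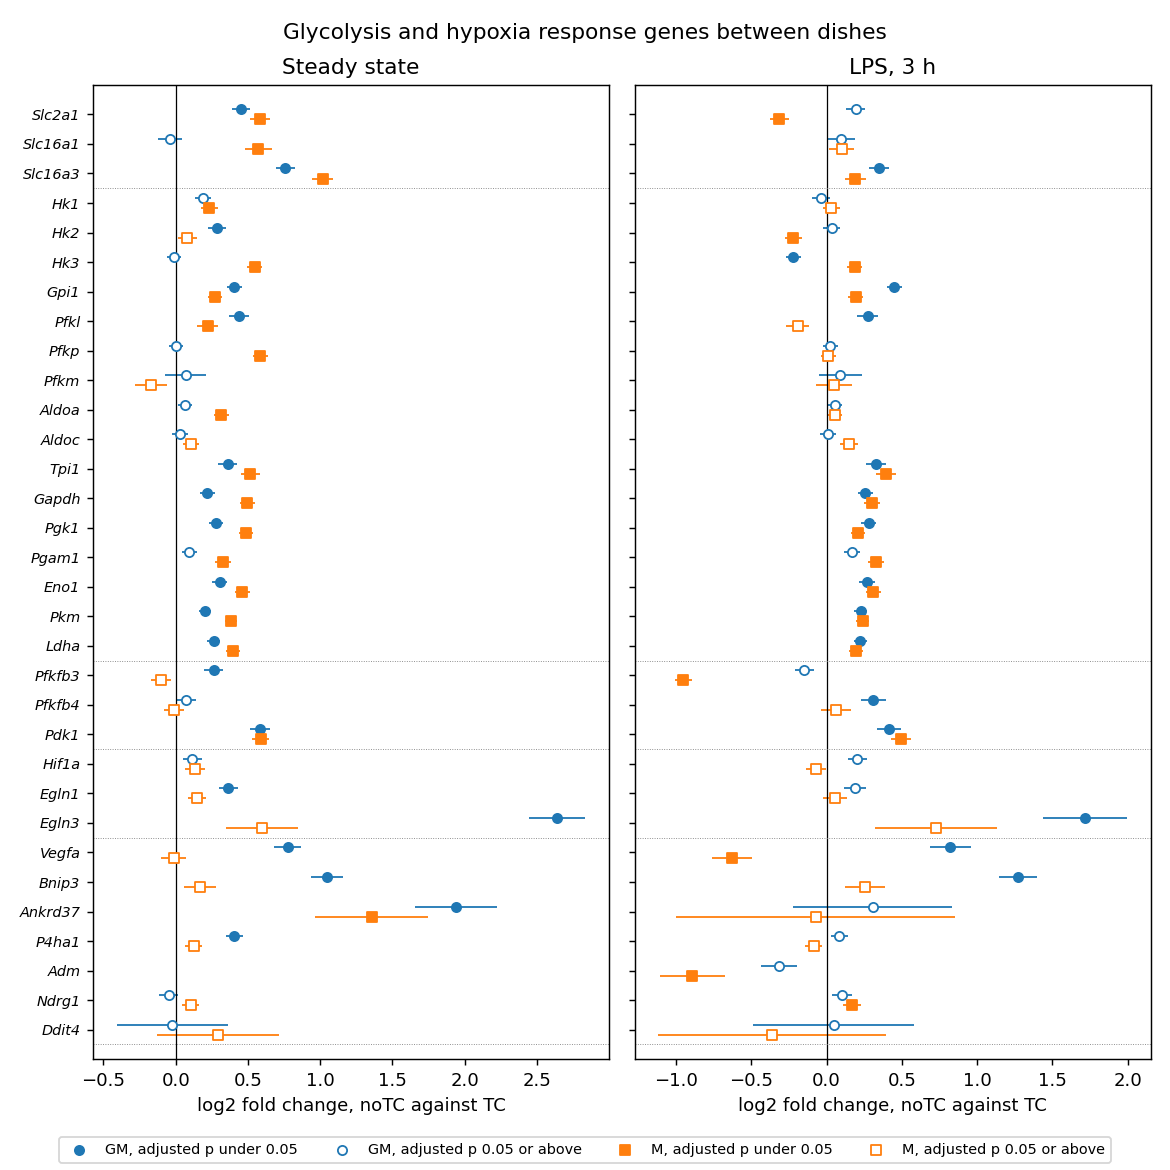
Log2 fold change of each gene in noTC against TC cells (x axis) at steady state and after 3 h of LPS, with bars for the standard error and filled symbols for an adjusted p under 0.05. At steady state, 19 genes in GM and 18 in M carry filled symbols and all of these lie right of 0. Adm is left out at steady state because its libraries held 8 counts or fewer.

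Egln3, a prolyl hydroxylase gene that HIF induces, differed most in GM cells. Its level was 3.74 and 3.54 CPM in the GM-TC libraries and 20.8 and 24.6 CPM in the GM-noTC libraries. This is a log2 fold change of 2.64 ± 0.19 (SE, adjusted p = 6.3e-09), or 6.25-fold. Per kilobase of exon, Egln3 went from 1.37 ± 0.051 to 8.53 ± 0.99 CPM (SD, n = 2), beside 11.5 ± 0.79 and 14.8 ± 0.62 CPM per kilobase for Egln1, the main oxygen-sensing hydroxylase. In M cells Egln3 was at 2.51 and 1.31 CPM on TC and 2.43 and 3.23 CPM on noTC dishes, groups that overlapped, and the change of 0.60 ± 0.25 had an adjusted p of 0.086. The difference between GM and M in the effect of the dish was 2.05 ± 0.33 on the log2 scale (adjusted p = 0.00022). Without M-TC replicate 1 the M change was 1.12, with an adjusted p of 0.014.

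Among the hypoxia response genes, 4 of 7 rose on noTC dishes in GM cells, where 4.69% of all genes did, and 1 of 7 in M cells, where 16.1% did. Ankrd37, an ankyrin repeat protein induced in hypoxia, was at 1.16 and 1.29 CPM in GM-TC and at 4.36 and 5.10 CPM in GM-noTC cells. In M cells it was at 0.399 and 0.299 CPM on TC and 0.977 and 0.836 CPM on noTC dishes, from 8 to 36 counts per library. The groups did not overlap in either cell type, and its log2 fold changes were 1.94 ± 0.28 in GM (adjusted p = 7.6e-05) and 1.36 ± 0.39 in M (adjusted p = 0.013). The M call was lost without M-TC replicate 2 (adjusted p = 0.12) or M-noTC replicate 1 (adjusted p = 0.071).

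Bnip3, which drives removal of mitochondria, and Vegfa, the angiogenic factor, rose in GM cells. Bnip3 was at 11.7 and 13.5 CPM in GM-TC and 23.8 and 28.4 CPM in GM-noTC libraries, a log2 fold change of 1.05 ± 0.11 (adjusted p = 9.8e-07). Vegfa was at 37.2 and 34.6 CPM and then 58.8 and 63.8 CPM, a change of 0.77 ± 0.09 (adjusted p = 8.0e-06). In M cells Bnip3 was at 13.6 and 12.1 CPM on TC and 13.7 and 15.1 CPM on noTC dishes, and Vegfa at 78.6 and 71.0 CPM and 71.97 and 76.1 CPM. The M changes were 0.17 ± 0.11 for Bnip3 and -0.01 ± 0.09 for Vegfa, with adjusted p-values of 0.28 and 0.94. P4ha1, a collagen prolyl hydroxylase subunit, rose by 0.41 ± 0.06 in GM cells (adjusted p = 6.6e-05). Ndrg1 and the stress gene Ddit4 passed in neither cell type. Adm, which encodes adrenomedullin, had 2 and 0 counts in GM-TC and 7 and 8 in GM-noTC libraries (adjusted p = 0.056), beside 441 to 611 counts in the GM libraries after LPS.

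**Figure D2:**
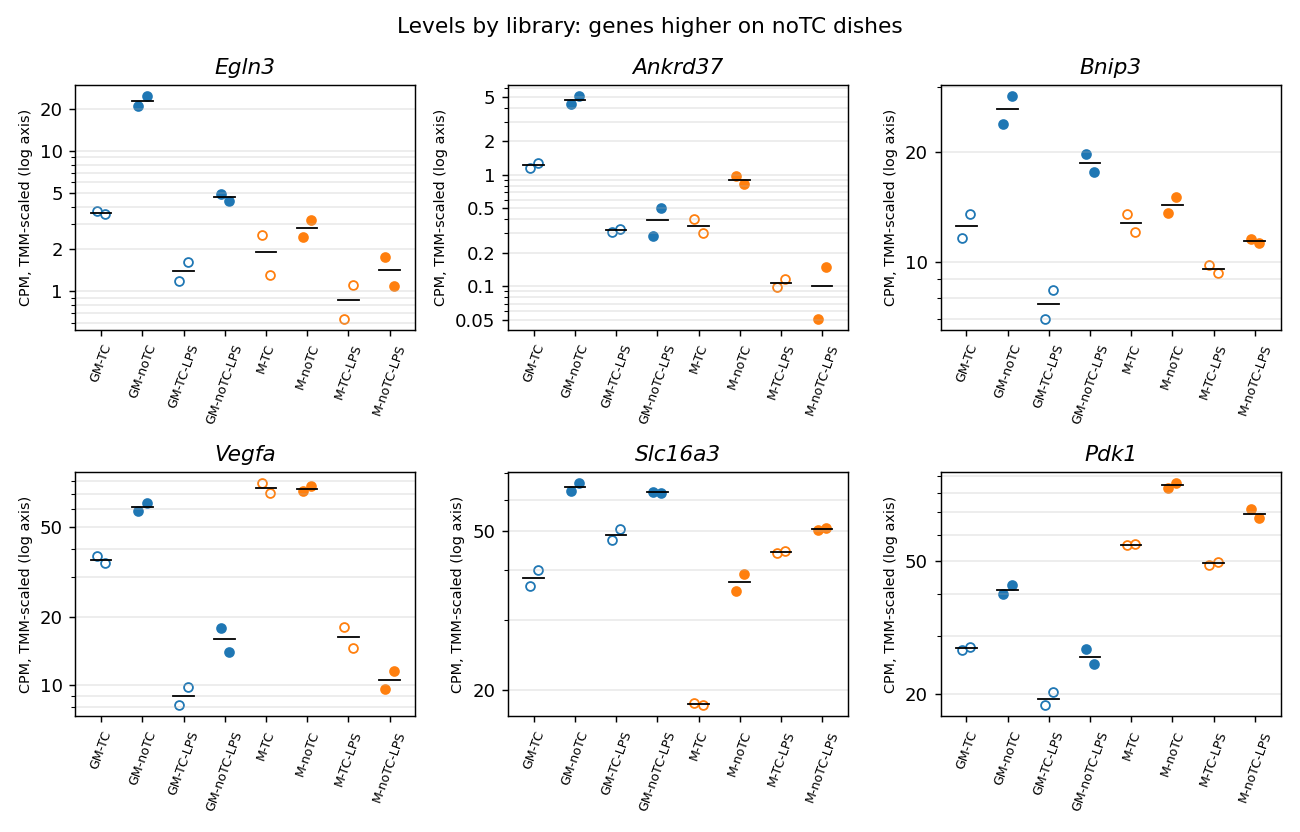
TMM-scaled CPM on a log axis in each of the 16 libraries for 6 genes higher on noTC dishes in GM cells at steady state. GM is in blue and M in orange, with open symbols for TC and filled for noTC dishes, and a line at the mean of 2 libraries. Egln3 reaches 20.8 and 24.6 CPM in GM-noTC cells and lies at or below 4.93 CPM in the other 14 libraries.

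The 3 transporters, Pdk1 and Pfkfb3 rose on noTC dishes in one cell type or both, and Pfkfb4 in neither. Slc16a3 encodes MCT4, the exporter of lactate from glycolytic cells. Its GM levels were 36.4 and 39.9 CPM on TC dishes and 63.1 and 66.2 CPM on noTC dishes, and its M levels 18.6 and 18.3 CPM and then 35.3 and 39.1 CPM. The log2 fold change was 0.76 ± 0.07 for GM cells (adjusted p = 8.8e-08) and 1.02 ± 0.07 for M cells (adjusted p = 6.7e-10). Slc2a1, the glucose transporter GLUT1, rose by 0.45 ± 0.06 in GM and 0.58 ± 0.07 in M. Slc16a1, the lactate and pyruvate transporter MCT1, rose in M by 0.57 ± 0.09 and was at -0.04 ± 0.08 in GM, where it did not pass.

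Pdk1 encodes a kinase that restrains entry of pyruvate into mitochondria. GM cells had 27.2 and 27.7 CPM on TC and 39.8 and 42.4 CPM on noTC dishes, and M cells 56.0 and 56.3 CPM and then 82.9 and 85.9 CPM. It rose by 0.58 ± 0.07 and 0.59 ± 0.06 on the log2 scale. Pfkfb3, which makes the activator of phosphofructokinase 1, rose by 0.26 ± 0.07 in GM cells and did not pass in M cells (-0.10 ± 0.07). Its GM call was lost in the fit to the 4 GM libraries (adjusted p = 0.13) and without GM-TC replicate 2 (0.067), GM-noTC replicate 1 (0.107) or GM-noTC replicate 2 (0.085). Hif1a itself was at 225 and 209.6 CPM on TC and 239 and 232 CPM on noTC dishes for GM cells, and at 159 and 149.6 CPM and then 167 and 171 CPM for M cells. Its changes of 0.12 ± 0.07 and 0.13 ± 0.07 did not pass (adjusted p = 0.35 and 0.16).

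The glycolytic enzymes rose by small amounts. In GM cells 9 of the 16 were higher on noTC dishes, between 1.15-fold and 1.35-fold, and in M cells 13 of 16 were, between 1.17-fold and 1.499-fold, against 4.69% and 16.1% of all genes. Gpi1, the second enzyme of the pathway, rose by 0.41 ± 0.05 in GM and 0.27 ± 0.05 in M, and Tpi1, triosephosphate isomerase, by 0.36 ± 0.06 and 0.52 ± 0.06. Gapdh was at 1623 and 1825 CPM on TC and 1997 and 2017 CPM on noTC dishes for GM cells, and at 1016 and 1022 CPM and then 1411 and 1460.2 CPM for M cells. Its groups did not overlap between dishes, and its changes were 0.22 ± 0.05 (adjusted p = 0.0098) and 0.50 ± 0.05 (adjusted p = 2.3e-07). The GM call of Hk2 was lost without GM-TC replicate 2 (log2 fold change 0.16) or GM-noTC replicate 2 (0.27). That of Pkm was lost without GM-noTC replicate 2 (0.19). In the fit to the 4 GM libraries the enzymes Hk2, Tpi1, Pgk1, Pkm and Ldha lost their GM calls (adjusted p = 0.068 to 0.19). The GM call of Gapdh was lost there too (adjusted p = 0.15) and without either GM-noTC library (adjusted p = 0.075 without replicate 1 and 0.097 without replicate 2).

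Hk3 and Pfkp rose in M but not by the test in GM cells, and the muscle isoform Pfkm was called in neither. Hk3, a hexokinase of myeloid cells, went from 135 and 138 CPM to 203 and 196 CPM in M, and Pfkp, the platelet-type phosphofructokinase, from 64.9 and 63.7 CPM to 99.7 and 93.3 CPM. In GM their log2 fold changes were -0.01 ± 0.05 and 0.0041 ± 0.05. Values of Eno1, Pfkp and Gapdh were not whole in 16, 16 and 15 libraries, so that the authors' quantification shared some of their reads with other genes. As a share of all counts in a library, the 16 enzymes held 0.842% ± 0.032 on TC and 0.979% ± 0.0065 on noTC dishes for GM cells, and 0.750% ± 0.0017 and 0.982% ± 0.0063 for M cells (SD, n = 2). Gapdh was the most counted enzyme in each GM group and Pkm in each M group.

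The steady-state TC libraries that are the lower group here are the ones with striated muscle markers. Other markers moved with the dish as well. Those of dendritic cells summed to 21.5 to 23.3 CPM in M-TC and 65.6 to 65.9 CPM in M-noTC cells, and after LPS to 17.6 to 19.4 and 45.5 to 50.3 CPM. Macrophage markers were lower in M cells on noTC dishes, with 28305 to 29577 CPM against 34787 to 35430.5 CPM, and after LPS with 19276 to 20071 CPM against 22632 to 23623 CPM. Neutrophil markers summed to 14.4 to 18.5 CPM in GM-TC and 22.8 to 27.0 CPM in GM-noTC cells, with all 8 detected. The part of these markers in the differences between dishes was not tested. After subtraction of the share estimated from other libraries, the numbers called between dishes at steady state stayed within 1.5 times. Egln3 was then at 2.65, Ankrd37 at 1.95 and Bnip3 at 1.05 in GM cells. These genes were lower in all libraries other than GM-noTC, so the subtraction could take little from them.

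After LPS the genes still differed between dishes. In GM cells 14 were higher on noTC dishes and 1, Hk3, lower (-0.22 ± 0.05), against 2.08% and 0.727% of all genes. The Hk3 call was lost without GM-TC-LPS replicate 1 (adjusted p = 0.10), GM-TC-LPS replicate 2 (0.14) or GM-noTC-LPS replicate 1 (0.20). In M cells 12 were higher and 5 lower, against 10.4% and 12.9%. The 9 genes Eno1, Gapdh, Gpi1, Ldha, Pdk1, Pgk1, Pkm, Slc16a3 and Tpi1 were higher on noTC dishes in all 4 comparisons of dishes, which 0.447% of all genes were. Of these, Gpi1 and Pkm alone kept the GM call after LPS without GM-TC-LPS replicate 1. The M call of Gpi1 after LPS was lost without M-TC-LPS replicate 2 (log2 fold change 0.14) or M-noTC-LPS replicate 1 (0.17). The call of Slc16a3 in M cells after LPS was lost with DESeq2 (adjusted p = 0.13) and without any 1 of the 4 libraries (0.11 to 0.17). The number called in GM cells, 15 in both directions, was 5 without GM-TC-LPS replicate 1 and 10 without GM-noTC-LPS replicate 1.

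Egln3 was at 1.19 and 1.63 CPM in GM-TC-LPS and 4.93 and 4.43 CPM in GM-noTC-LPS cells, a log2 fold change of 1.72 ± 0.28 (adjusted p = 0.00072). Bnip3 was at 7.03 and 8.40 CPM and then 19.8 and 17.7 CPM, a change of 1.27 ± 0.12 (adjusted p = 1.9e-06). In M cells Bnip3 was at 9.84 and 9.36 CPM and 11.6 and 11.3 CPM, a change of 0.25 ± 0.13 that did not pass, and the difference between cell types was 1.02 ± 0.18 (adjusted p = 0.00065).

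Vegfa went opposite ways in the 2 cell types. For GM cells it was at 8.17 and 9.80 CPM on TC and 17.9 and 14.1 CPM on noTC dishes, and for M cells at 18.1 and 14.6 CPM and then 9.65 and 11.6 CPM. None of these pairs of groups overlapped. The changes were 0.82 ± 0.13 and -0.63 ± 0.13, and their difference was 1.45 ± 0.19 (adjusted p = 2.0e-05). The M call of Vegfa was lost without M-TC-LPS replicate 1 (adjusted p = 0.063). The other genes lower in M-noTC-LPS than in M-TC-LPS cells were Pfkfb3 (-0.95 ± 0.06), Adm (-0.89 ± 0.22), Slc2a1 (-0.31 ± 0.06) and Hk2 (-0.22 ± 0.06). The Adm call was lost without M-TC-LPS replicate 1 (adjusted p = 0.076). That of Hk2 was lost by library size alone (0.13) and without M-TC-LPS replicate 2 (0.051) or M-noTC-LPS replicate 1 (0.083).

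LPS was then compared with steady state in each of the 4 cultures, which asks how the endotoxin changed the same genes. It moved most genes of the transcriptome. Among the 32 genes, the shares called higher and lower were near the background in GM cells. In M cells the share called higher was above the background and the share called lower was below it. In GM-TC cells 13 were higher and 11 lower after LPS, against 32.8% and 34.2% of all genes, and for GM-noTC cells 11 and 11, against 33.6% and 34%. In M-TC cells 18 and 8 passed, against 37.6% and 36.4%, and in M-noTC cells 19 and 8, against 36.4% and 35.9%. The split depends on the scaling. Library size alone puts the median of all genes between -0.83 and -0.53 on the log2 scale. By it, 6 were higher and 24 lower for GM-TC, against 17.2% and 62.7% of all genes. For GM-noTC they were 5 and 27, against 16.4% and 63.8%. For M-TC cells 11 and 19 passed, against 16.3% and 69.1%, and for M-noTC cells 9 and 21, against 16.1% and 68.5%. With TMM factors, 10 genes were higher and 8 lower in all 4 cultures, against 25% and 22.7% of all genes. Of the 10, Gapdh, Hk3, Ldha, Pfkfb3 and Pgk1 were lower in at least 1 culture by library size alone. The 8 genes that fell in M-TC were 4 without M-TC replicate 1 or M-TC-LPS replicate 1, and those in M-noTC were 5 without M-noTC replicate 2.

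**Figure D3:**
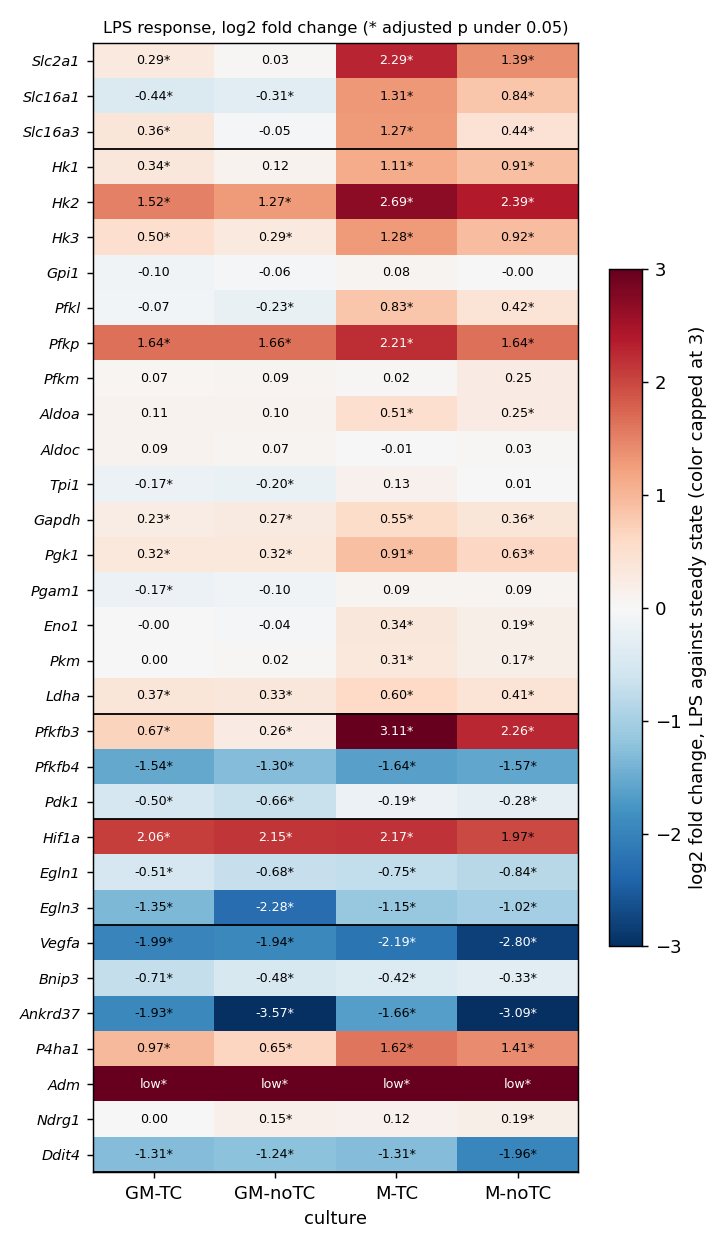
Log2 fold change of each gene after 3 h of LPS against steady state in the 4 cultures, with a star for an adjusted p under 0.05 and lines between the functional groups. Hif1a is between 1.97 and 2.17 in all 4 columns while Vegfa, Pfkfb4, Ankrd37 and Egln3 are below 0 in all 4, and Adm is marked low because a steady-state library held 8 counts or fewer.

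Hif1a rose in all 4 cultures, from 225 and 209.6 CPM to 901 and 918 CPM in GM-TC cells and from 159 and 149.6 CPM to 646 and 745 CPM in M-TC cells. On noTC dishes it reached 1011 and 1085 CPM in GM and 622 and 701 CPM in M cells. The log2 fold changes lay between 1.97 ± 0.07 and 2.17 ± 0.07. The prolyl hydroxylase genes fell in the same 4 comparisons, with log2 fold changes of -0.84 to -0.51 for Egln1 and -2.28 to -1.02 for Egln3. Both directions were kept when libraries were scaled by size alone.

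The hypoxia response genes split after LPS. Vegfa fell, with log2 fold changes of -1.99 ± 0.12 and -1.94 ± 0.10 in GM cells on TC and noTC dishes and -2.19 ± 0.11 and -2.80 ± 0.11 in M cells. Bnip3 (-0.71 to -0.33) and Ddit4, an inhibitor of mTORC1 (-1.96 to -1.24), also fell. P4ha1 rose by 0.97 ± 0.06, 0.65 ± 0.06, 1.62 ± 0.06 and 1.41 ± 0.06 in the same order. Adm had 0 to 2 counts in a steady-state library other than GM-noTC, where it had 7 and 8, and after LPS 502 and 611 counts on TC and 441 and 499 on noTC dishes for GM cells, and 80 and 56 and then 37 and 40 for M cells. In GM-noTC cells the ratio of its CPM was 75.1 (95% counting interval 45.3 to 135), and in M-noTC cells it was 70.8 (19.0 to 595).

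Ankrd37 had 107 and 138 counts in GM-noTC and 6 and 11 in GM-noTC-LPS libraries, so that steady state was 12.02 times higher (7.35 to 21.0). In GM-TC cells it was 3.87 times higher (2.09 to 7.73). In M cells its LPS libraries held 1 to 3 counts, and the ratios were 3.26 (1.07 to 13.2) on TC and 8.83 (3.29 to 33.4) on noTC dishes. Intervals are from counts alone.

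Among the enzymes, Hk2 and Pfkp, isoforms of steps that consume ATP, changed most. Hk2, the inducible hexokinase, went from 78.4 and 66.2 CPM to 209 and 205 CPM in GM-TC and from 38.9 and 38.9 CPM to 249 and 253 CPM in M-TC cells. Its log2 fold changes were 1.52 ± 0.06, 1.27 ± 0.06, 2.69 ± 0.07 and 2.39 ± 0.06 in the order of the heat map's columns, and those of Pfkp 1.64 ± 0.05, 1.66 ± 0.05, 2.21 ± 0.05 and 1.64 ± 0.05. Both stayed above 0 in all 4 cultures by library size alone. Gapdh, Pgk1 and Ldha also passed as higher in all 4 cultures, by 0.23 to 0.91, but turned lower by library size alone, with 1 exception, Pgk1 in M-TC cells. Gpi1, Pfkm and Aldoc passed in none of the 4.

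Pfkfb3 and Pfkfb4 make and break down the same activator. Pfkfb3 was at 25.05 and 24.9 CPM in M-TC and 216 and 215 CPM in M-TC-LPS cells, a log2 fold change of 3.11 ± 0.06, and changed by 2.26 ± 0.06 in M-noTC, 0.67 ± 0.07 in GM-TC and 0.26 ± 0.06 in GM-noTC cells, where it was at -0.25 by library size alone. Pfkfb4 went from 33.7 and 34.6 CPM to 11.4 and 10.5 CPM in M-TC cells and fell in the 4 cultures (-1.64 to -1.304). Pdk1 fell as well (-0.66 to -0.19). Counted per kilobase of exon, Pfkfb3 made up 33.6% ± 0.30 of the sum of both for GM-TC and 70.1% ± 1.3 for GM-TC-LPS cells, and 32.03% ± 0.49 and 92.7% ± 0.35 for the M cells on TC dishes (SD, n = 2).

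**Figure D4:**
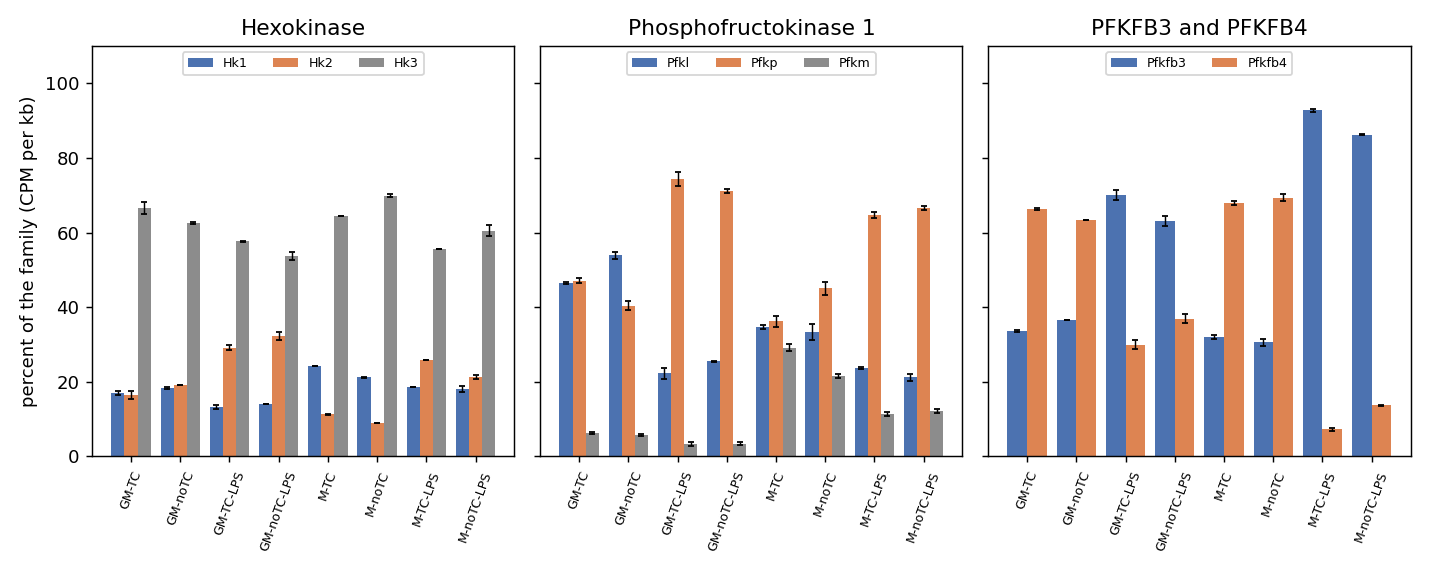
Share of each paralog in its family's summed CPM per kilobase of exon in the 8 groups, for 3 hexokinases, 3 phosphofructokinase 1 isoforms and Pfkfb3 with Pfkfb4, as the mean of 2 libraries with bars for the SD. Pfkfb3 rises from 33.6% to 70.1% in GM-TC and from 32.03% to 92.7% in M-TC cells after LPS.

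Of the hexokinases, Hk2 held 16.5% ± 1.1 of the family per kilobase before and 29.1% ± 0.65 after LPS in GM cells on TC dishes, and 11.3% ± 0.17 and 25.9% ± 0.025 in M cells. Hk3 held the largest share in every group, 53.7% to 69.9%. Pfkp held 47.1% ± 0.57 of the phosphofructokinases before and 74.3% ± 1.9 after LPS in the same GM cells, and 36.2% ± 1.4 and 64.8% ± 0.87 in M cells. With the longest transcript as the length, Hk2 held 14.0% and 25.5% and Pfkp 44.5% and 72.3% in the GM-TC groups, and the rises with LPS remained.

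The response to LPS differed between GM and M cells for many of these genes, and the tests of the difference between the fold changes were largely of one sign. On TC dishes 20 of the 32 had a lower log2 fold change in GM than in M cells and 0 a higher one, against 23.3% and 17.8% of all genes, and at an unadjusted p under 0.05 Egln1 was higher. On noTC dishes 13 were lower and 1, Vegfa, higher, against 19.3% and 16.9%. These differences share the TMM factors of the groups, and DESeq2's size factors left both counts within 1.5 times.

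Slc2a1 went from 31.0 and 32.5 CPM to 158 and 153 CPM in M-TC cells with LPS, and from 107 and 113 CPM to 137 and 131 CPM in GM-TC cells. Its changes of 2.29 ± 0.07 and 0.29 ± 0.06 differed by -2.01 ± 0.09 (GM minus M, adjusted p = 1.4e-13). By library size alone the GM-TC change was -0.20. The steady-state groups were far apart and the LPS groups near each other. Pfkfb3 responses differed by -2.44 ± 0.09 on TC and -2.002 ± 0.09 on noTC dishes, and those of Hk2 by -1.17 ± 0.09 and -1.12 ± 0.09. Slc16a1 moved in opposite directions, at -0.44 ± 0.09 on TC and -0.31 ± 0.09 on noTC dishes for GM cells and 1.31 ± 0.09 and 0.84 ± 0.08 for M cells. Hif1a responses did not differ by the test (adjusted p = 0.39 on TC and 0.13 on noTC dishes).

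**Figure D5:**
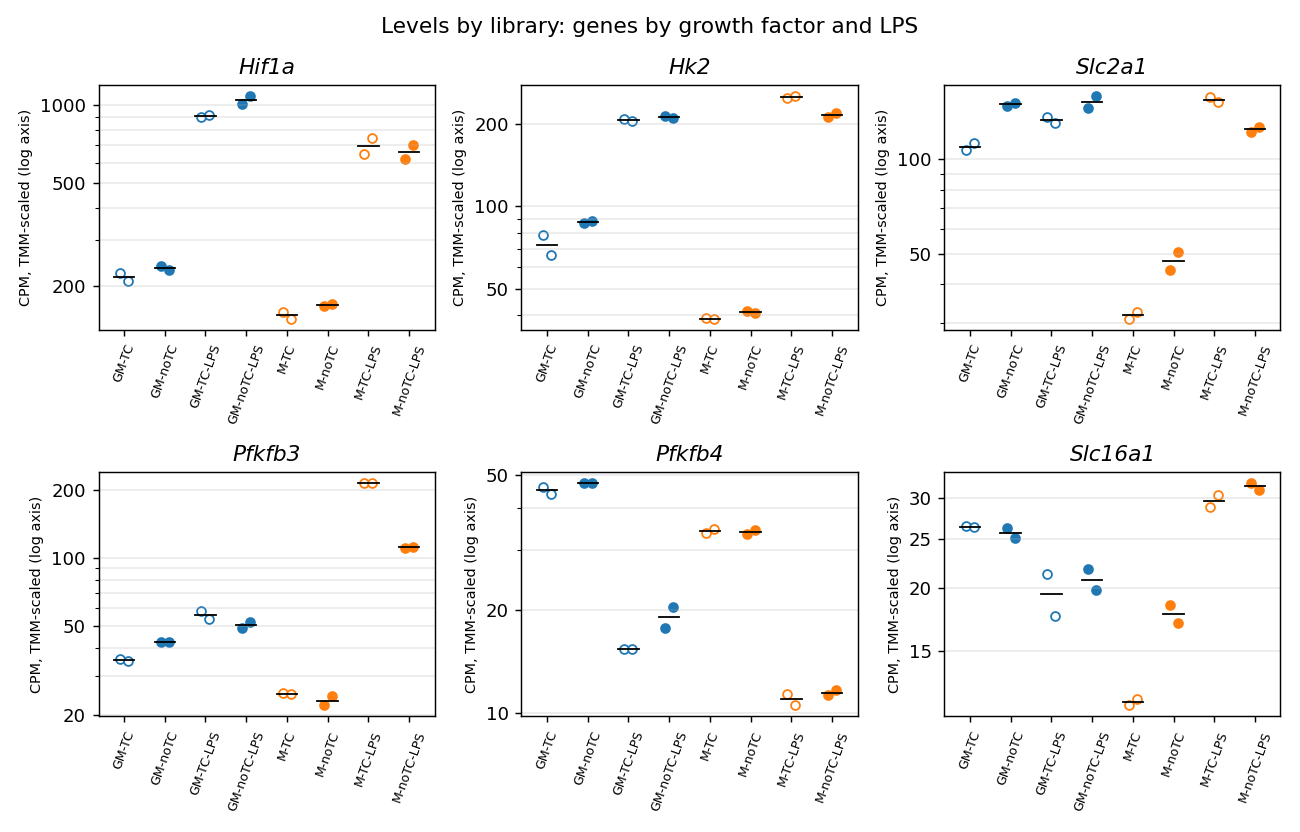
TMM-scaled CPM on a log axis in each of the 16 libraries for 6 genes that move with LPS, with GM in blue, M in orange, open symbols for TC and filled for noTC dishes, and a line at the mean of 2 libraries. Slc2a1 is at 31.0 to 50.5 CPM in the M steady-state libraries and at 107 CPM or more in all others.

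Whether the dish changed the response to LPS was tested within each cell type. In M cells 11 of the 32 had a lower log2 fold change with LPS on noTC than on TC dishes and 0 a higher one, against 7.48% and 3.11% of all genes. None was higher at an unadjusted p under 0.05. The number was 5 to 7 without any one of the 4 steady-state M libraries, 6 without M-noTC-LPS replicate 1, and 6 by library size alone. All 3 transporters were among them, and Slc2a1 rose by 2.29 ± 0.07 on TC and 1.39 ± 0.06 on noTC dishes, a difference of -0.90 ± 0.09 (adjusted p = 1.2e-06). In GM cells 2 genes passed, Slc16a3 and Pfkfb3, against 0.783% of all genes, both lower (0.591%), and 0 were higher (0.192%), with Pfkfb4 higher at an unadjusted p under 0.05. Their differences were -0.41 ± 0.09 for each, with adjusted p-values of 0.040 and 0.031, and neither passed after that subtraction of the share of other libraries (adjusted p = 0.084 and 0.083) or in a fit to the GM libraries alone. Leaving out single GM libraries gave 0, 1 or, without GM-TC replicate 1, 7 called genes. The effect of the dish itself, GM minus M, was higher for 5 and lower for 7 genes at steady state, against 4.82% and 6.4% of all genes, and higher for 6 and lower for 1 after LPS, against 6.87% and 3.71%. The 12 at steady state were 7 or 8 without any one library, except 18 without GM-TC replicate 1.

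GM and M cells were compared with each other in each state. At steady state, with TMM factors, most of these RNAs were higher in GM cells. On TC dishes 21 of the 32 were higher and 5 lower than in M cells, against 32.6% and 28.9% of all genes. On noTC dishes they were 23 and 8, against 31.4% and 30.7%. By library size alone 16 were higher and 9 lower on TC dishes, against 19.6% and 50.8% of all genes. On noTC dishes they were 20 and 9, against 19.7% and 52.1%. As a share of all counts, the 16 enzymes held 0.842% in GM-TC and 0.750% in M-TC cells. On noTC dishes they held 0.979% in GM and 0.982% in M cells. With TMM factors after LPS, 12 were higher and 13 lower on TC dishes, against 33.9% and 32.9%. On noTC dishes after LPS they were 18 and 10, against 33.5% and 32.6%. The genes higher in GM cells in all 4 states were Aldoc, Eno1, Gapdh, Gpi1, Hif1a, Ldha, Pfkfb4, Pfkl, Pfkp and Pgam1, 10 in number, and Hk1, Ndrg1, Pdk1 and Pfkm were lower in all 4. The shares of all genes for these patterns were 17.5% and 16.3%.

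The transporters were higher in GM cells at steady state, with log2 fold changes against M-TC of 1.79 ± 0.07 for Slc2a1, 1.15 ± 0.09 for Slc16a1 and 1.05 ± 0.07 for Slc16a3. Pfkl, the liver-type phosphofructokinase, was at 79.3 and 81.3 CPM in GM-TC and 32.1 and 29.3 CPM in M-TC cells (1.39 ± 0.07), and Pgam1 at 659 and 742 CPM and 333 and 334 CPM (1.07 ± 0.05). Pfkm was at 5.25 and 5.72 CPM in GM-TC and 13.7 and 12.2 CPM in M-TC cells (-1.23 ± 0.13), and Pdk1 differed by -1.03 ± 0.07 there and by -1.42 ± 0.07 in noTC-LPS cells. After LPS the order of Pfkfb3 turned, from 0.49 ± 0.07 higher in GM-TC cells to -1.95 ± 0.06 in GM-TC-LPS cells. Egln3 was 2.98 ± 0.19 higher in GM-noTC than in M-noTC cells and Ankrd37 2.39 ± 0.27. Markers of neutrophils and dendritic cells were also higher in GM libraries, and their part in these differences was not tested.

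The wider lists show what neighbouring genes of the pathways did. Of 27 other glycolysis and pyruvate genes tested, 1 rose and 1 fell on noTC dishes in GM cells, where 4.69% and 2.85% of all genes did, and of 8 pentose phosphate genes and 11 genes of the HIF machinery 0 passed there, with 0 and 4 (Epas1, Vhl, Ep300 and Crebbp) at an unadjusted p under 0.05. The pair in GM cells were Slc2a6, a glucose transporter family member, at 0.20, and Ldhb, the heart-type lactate dehydrogenase subunit, at -0.43. Without GM-TC replicate 2 or either GM-noTC library Ldhb did not pass. Its GM call was also lost with DESeq2 (adjusted p = 0.12) and in the fit to the 4 GM libraries (0.060). In M cells, where 16.1% of all genes rose and 11.1% fell, 1 of the 27 rose and 6 fell, with Ldhb at -1.11 and the muscle enolase Eno3 at -0.93, where the M-TC libraries also held the muscle markers. Of 23 other hypoxia targets, 5 rose in GM cells and 0 fell, against the same shares, namely Stc2 (2.47), Ak4 (1.03), Gys1 (0.52), Ero1l (0.45) and Lox (0.37). In M cells 6 of them rose, Ak4 by 1.48 and Ero1l by 0.28, and 2 fell, against the same 16.1% and 11.1%. Ak4 is a mitochondrial adenylate kinase and Ero1l an oxidase of protein folding. Stc2 rests on 10 counts in the GM-TC and 65 in the GM-noTC libraries. Stc2, Gys1, Lox, Slc2a6 and Eno3, and the 4 genes of the HIF machinery, were named here after their values were seen.

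After LPS, Slc2a6 rose by 2.51 to 2.70 and Gpd2, the mitochondrial glycerol phosphate dehydrogenase, by 1.96 to 3.40 in the 4 cultures, while the pyruvate dehydrogenase kinase Pdk2 (-2.72 to -1.92) and Bpgm (-1.56 to -1.11) fell. Of the HIF machinery, Cited2, which competes with HIF for its coactivator, rose by 2.78 to 3.03, and the coactivator gene Crebbp rose by 0.39 to 0.83 but was lower in both M cultures by library size alone. Epas1, which encodes HIF-2α, fell (-0.58 to -0.54). Plod2, a collagen lysyl hydroxylase, rose by 2.30 to 4.87 and Lox, a collagen crosslinking oxidase, by 3.78 to 4.82, and Angptl4 went from 5.70 to 0.450 CPM in GM-TC cells and from 1.45 to 0.0291 CPM in M-TC cells. Zfp395 went from 3.96 to 0.511 CPM and from 12.2 to 0.132 CPM. In the pentose phosphate and gluconeogenesis lists, H6pd (-1.49 to -1.05) and Pck2 (-1.68 to -0.85) fell, while Rpe rose by 0.33 to 1.16 but was lower in both GM cultures by library size alone.

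Between GM and M cells, Epas1 was higher in GM by 1.59 to 2.02 in the 4 states and Bhlhe40, a transcriptional repressor, by 3.81 to 4.04. Arnt2, a partner of HIF, was at 14.2 ± 2.4 CPM in GM-TC and 0.096 ± 0.023 CPM in M-TC cells, and Pgf, a VEGF family ligand, at 4.10 ± 0.052 and 0.0761 ± 0.051 CPM (SD, n = 2). Gpd1 was higher in GM by 2.44 to 3.27, Ldhb by 2.30 to 2.98 and G6pc3 by 0.63 to 0.995. Lower in GM cells in all 4 states were Cited2 (-1.46 to -1.29), Pck2 (-2.08 to -0.94), Eno2 (-1.29 to -0.78), Plod1 (-1.06 to -0.78), P4ha2 (-1.83 to -0.42), Pdp2 (-0.77 to -0.64), H6pd (-0.69 to -0.26) and G6pdx (-0.59 to -0.23).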

How the data were processed

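RNA-seq libraries were made by the authors from oligo-dT selected RNA with an NEBNext Ultra kit and sequenced on NovaSeq6000. Clean reads were aligned with HISAT2. RSEM then gave the expected counts per gene that the authors deposited without normalization, and the processing notes also name fastp, Bowtie2 and StringTie. The genome build and annotation are not given in the sources used here. Between 6.56% and 8.19% of values per library were not whole, and all were rounded. Groups and replicate numbers came from the labels.

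edgeR 4.0.16 in R 4.3.3 was fitted once over the 16 libraries with its quasi-likelihood test, TMM factors and its expression filter by group, without a replicate block, for 12 comparisons of 2 groups and 6 differences of differences. Calls used an adjusted p under 0.05 over all 12514 genes. The study's own threshold, a fold above 2 with unadjusted p under 0.05, was an alternative, as were DESeq2 1.42.0, its size factors, library size only, no filter, the libraries of the comparison only, a replicate block, subtraction of a share of other libraries' reads estimated for the noTC steady-state libraries, and leaving out each library. The test was run on simulated counts with the same mean profile in all groups, apart from genes changed in GM-noTC. That simulation held neither the shift of the TMM factors with LPS nor the wider spread of the GM-TC replicates. Standard errors are the fold change divided by the root of the F statistic. Lengths are unions of exons in GENCODE M21. Counting intervals of ratios are exact 95% intervals.

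All 32 genes are reported. From wider lists, up to 2 genes per list and direction are named that passed with the same sign in all 4 LPS comparisons, all 4 comparisons of GM and M, or both comparisons of dishes at steady state, with the largest smallest change. The genes and lists were chosen with earlier results of these data known. An exact permutation test of 2 against 2 libraries cannot give a two-sided p below 0.333. The study calls the replicates biological, and nothing says which animals they came from. A second, near-empty row with the symbol Aldoa was not tested.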

Additional observations from a re-analysis of the deposited data

Results flagged for a closer look

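The 17 differences between fold changes given here passed an adjusted p under 0.05 in edgeR's quasi-likelihood test and were singled out because the difference was over 2-fold or both effects passed with opposite signs, except for the response to LPS between dishes in GM cells, where each gene that passed is given. All are log2 fold changes, and with groups of 2 libraries no single library was tested as standing apart.

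In the response to LPS on TC dishes, GM minus M was -2.01 for Slc2a1, -1.17 for Hk2, -2.44 for Pfkfb3 and -1.76 for Slc16a1, which fell in GM and rose in M cells. On noTC dishes it was -1.37 for Slc2a1, -1.12 for Hk2, -2.002 for Pfkfb3, -1.26 for Egln3, and, with opposite signs in GM and M, -1.14 for Slc16a1 and -0.65 for Pfkl.

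In the response to LPS on noTC minus TC dishes, GM cells gave -0.41 for Slc16a3 and -0.41 for Pfkfb3, and M cells -0.90 for Slc2a1, which was higher on noTC dishes at steady state and lower after LPS. In the effect of the dish, GM minus M was 2.05 for Egln3 at steady state. After LPS it was 1.02 for Bnip3, 1.45 for Vegfa and -0.41 for Hk3, and the last pair had opposite signs in GM and M cells. The Hk3 calls behind it were lost in 3 of 4 fits without 1 library in GM and 2 of 4 in M cells.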

How the results depend on the processing

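The number of the 32 genes called stayed within 1.5 times in all 26 counts with DESeq2, with its size factors and with a replicate block, which moved 3 single calls past the threshold (Ddit4 with LPS in M-TC, Pfkfb4 between dishes in GM-LPS and Ndrg1 between dishes in M-LPS). Same-numbered libraries deviated with correlations of -0.069 to 0.062 and were not taken as pairs. A fit to the libraries of the comparison gave 11 between dishes in GM and 0 for dish by LPS in GM, no filter gave 4 for the last, and subtraction of the estimated share of other libraries' reads gave 0. By library size only, LPS gave 6 higher and 24 lower for GM-TC, 5 and 27 for GM-noTC, 11 and 19 for M-TC and 9 and 21 for M-noTC, GM against M on TC gave 9 lower, and dish by LPS in M gave 6. At a fold above 2 with unadjusted p, LPS gave 4 and 5 for GM-TC, 4 and 5 for GM-noTC, 11 and 5 for M-TC and 7 and 5 for M-noTC. GM against M gave 8 and 3 on TC, 6 and 1 on noTC, 2 and 3 in TC-LPS and 3 and 4 in noTC-LPS. Dishes gave 4 in GM, 2 in GM-LPS, 2 in M and 0 in M-LPS. Growth factor by LPS gave 4 on TC and 5 on noTC, dish by LPS 0 in M, and dish by growth factor 1 at steady state and 2 after LPS. Shares of all genes are not set beside the numbers in this section. The numbers show how calls moved with the setting, and not whether the 32 genes differ from all genes.

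With 1 library left out, where the lone library is assumed to vary like the others, LPS gave 13 to 14 higher and 8 to 12 lower for GM-TC, 10 to 10 and 8 to 11 for GM-noTC, 18 to 19 and 4 to 7 for M-TC, and 18 to 19 and 5 to 8 for M-noTC. GM against M gave 20 to 22 and 4 to 5 on TC, 22 to 22 and 7 to 8 on noTC, 11 to 12 and 13 to 14 in TC-LPS, and 17 to 19 and 9 to 10 in noTC-LPS. Dishes gave 15 to 21 in GM, 5 to 12 in GM-LPS, 16 to 18 in M and 12 to 16 in M-LPS. Growth factor by LPS gave 17 to 20 and 12 to 17, dish by LPS 0 to 7 in GM and 5 to 9 in M, and dish by growth factor 7 to 18 and 6 to 7.

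Library size only turned the sign of 54 of 523 gene results, by construction since the median of all genes moved. With LPS in GM-TC these were Slc2a1 -0.20, Slc16a3 -0.12, Hk1 -0.14, Pfkm -0.41, Aldoa -0.37, Aldoc -0.39, Gapdh -0.25, Pgk1 -0.16, Pkm -0.48, Ldha -0.11, Ndrg1 -0.48, Rpe -0.15. With LPS in GM-noTC these were Slc2a1 -0.48, Hk1 -0.39, Hk3 -0.22, Pfkm -0.42, Aldoa -0.41, Aldoc -0.44, Gapdh -0.24, Pgk1 -0.18, Pkm -0.48, Ldha -0.18, Pfkfb3 -0.25, Ndrg1 -0.36, Rpe -0.087. With LPS in M-TC these were Gpi1 -0.75, Pfkm -0.80, Aldoa -0.32, Tpi1 -0.70, Gapdh -0.28, Pgam1 -0.74, Eno1 -0.49, Pkm -0.51, Ldha -0.22, Ndrg1 -0.71, Crebbp -0.18. With LPS in M-noTC these were Slc16a3 -0.28, Pfkl -0.31, Pfkm -0.48, Aldoa -0.48, Aldoc -0.69, Tpi1 -0.72, Gapdh -0.37, Pgk1 -0.096, Pgam1 -0.64, Eno1 -0.54, Pkm -0.56, Ldha -0.32, Ndrg1 -0.54, Crebbp -0.34. For GM against M on TC dishes these were Egln1 -0.18, P4ha1 -0.0088. For GM against M on noTC dishes these were Aldoa -0.15, Pgk1 -0.0045. The log2 fold changes of genes with few counts, such as Adm, Ankrd37 and Ddit4, are limited by depth. Of the 112 paralog shares, 92 moved by over 1 SD with the longest transcript as the length. The shares of the 16 enzymes with TMM scaling were 0.753% in GM-TC, 0.859% in GM-TC-LPS, 0.539% in M-TC and 0.786% in M-TC-LPS. As shares of all counts they were 0.842%, 0.689%, 0.750% and 0.616% in the same order. They rose with LPS by the first scaling and fell by the second.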
